A study of Mus musculus with 38 samples.

Results

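Livers of refed mice without the insulin receptor (LIRKO) were set against livers of refed insulin receptor floxed mice (IR floxed). The set held 8 of the 38 samples of the series, 4 LIRKO and 4 IR floxed, chosen by the genotype and feeding state in their titles. LIRKO mice had the insulin receptor knocked out, and IR floxed mice carried the floxed gene as the control. All 8 were males of 11 to 12 weeks on a mixed FVB/N-C57Bl/6 background, and all were fasted and then given regular food for 6 h before whole liver was frozen. The labels call the fast overnight in some fields and 24 h in others. LIRKO lines are made with Cre under the albumin promoter, which acts in hepatocytes, so that other liver cells keep the receptor; the labels used here do not name the Cre line. Total RNA was hybridised to two-colour Agilent arrays, 1 mouse per dye channel. For comparison the text uses fasted LIRKO (n = 3) against fasted IR floxed mice (n = 4), LIRKO against IR floxed mice 60 min after glucose (n = 3 each), and refed mice lacking both the insulin receptor and FoxO1 (LIRFKO, n = 4) against refed IR/FoxO1 floxed mice (n = 3), all of the same sex, ages and background.

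Insulin released after a meal acts on hepatocytes through its receptor, the receptor substrates Irs1 and Irs2, phosphoinositide 3-kinase and the kinase Akt. Akt phosphorylates the transcription factor FoxO1 and keeps it out of the nucleus, so that FoxO1 targets such as Igfbp1, G6pc, Pck1 and Irs2 are turned down in the fed liver, while fatty acid and sterol synthesis genes under the SREBP factors are raised. Liver also makes most circulating IGF-1 and, in male mice, a set of growth hormone dependent enzymes and secreted proteins.

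The promoters of 3 of these FoxO1 targets are shown because they carry a FoxO element, CAAAACA, given in capitals with the rest in lower case. Each window runs 5′ to 3′ on the gene's own strand from 250 bases before to 50 bases after the start of transcription (RefSeq, GRCm38.p6). Igfbp1 (chr11:7197537-7197836, plus strand) holds the element on the gene's strand 108 bases upstream of the start. G6pc (chr11:101367466-101367765, plus strand) holds it on the opposite strand, read as TGTTTTG, 174 bases upstream. Irs2 (chr8:11008880-11009179, minus strand) also holds it on the opposite strand, 37 bases upstream.
Igfbp1: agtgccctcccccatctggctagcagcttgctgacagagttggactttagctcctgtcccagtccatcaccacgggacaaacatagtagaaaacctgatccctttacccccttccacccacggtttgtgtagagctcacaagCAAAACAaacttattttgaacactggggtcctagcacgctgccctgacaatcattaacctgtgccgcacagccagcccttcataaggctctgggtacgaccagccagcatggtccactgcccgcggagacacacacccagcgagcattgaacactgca
G6pc: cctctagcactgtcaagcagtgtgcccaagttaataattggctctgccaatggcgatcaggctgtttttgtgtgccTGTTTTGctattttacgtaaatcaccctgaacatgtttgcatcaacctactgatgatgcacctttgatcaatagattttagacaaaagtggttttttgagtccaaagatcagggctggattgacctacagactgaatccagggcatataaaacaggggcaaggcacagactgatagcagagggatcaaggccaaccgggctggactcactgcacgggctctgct
Irs2: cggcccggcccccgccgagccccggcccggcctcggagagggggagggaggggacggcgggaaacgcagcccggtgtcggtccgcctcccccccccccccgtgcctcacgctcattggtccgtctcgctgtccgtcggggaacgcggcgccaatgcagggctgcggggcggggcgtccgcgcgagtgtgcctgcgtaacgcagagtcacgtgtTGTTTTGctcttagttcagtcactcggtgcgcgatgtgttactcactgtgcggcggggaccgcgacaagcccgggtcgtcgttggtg
The 300-base window of Pck1 (chr2:173152823-173153122, plus strand) has no match to these letters. The element, searched on both strands, lies in 6.28% of all 32851 mouse promoters in the table. It lies in 5.15% of the 20923 promoters of genes measured here and in 4.77% of the 1383 promoters of genes that were higher in LIRKO livers. Other motifs were searched in the same way. GTAAACA lies in 3.14% and 1.74% of these 20923 and 1383 promoters, and TTCNNNGAA (N is any base) in 7.85% and 7.59%.

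Values are log2 intensities of single channels, listed for the LIRKO libraries IR.KO_Refed_553, IR.KO_Refed_558, IR.KO_Refed_564 and IR.KO_Refed_565 and for the IR floxed libraries IR.fl_Refed_566, IR.fl_Refed_508, IR.fl_Refed_506 and IR.fl_Refed_562 in that order. A gene was called higher ("rose") or lower ("fell") in LIRKO livers where its adjusted p was under 0.05 over 22485 genes (limma, Benjamini-Hochberg). Changes are fitted differences, LIRKO minus IR floxed ± SE, with n = 4 and 4. The fit adjusts them for dye and array and takes the spread from all 37 samples in groups. A change can therefore differ from the difference between the means of the listed values. Column medians lay between 5.72 and 5.78, and a value at the top of the range, within 0.2 of the scale's ceiling at 16, is only a lower limit of the level. Dyes were balanced at 2 and 2 in each group. IR.KO_Refed_553 and IR.fl_Refed_562 shared an array, slides 184, 185 and 186 held both groups, and slide 188 held only IR.KO_Refed_558. The 8 libraries correlated at 0.983 to 0.995 within the groups and at 0.9748 to 0.9854 between them. IR.fl_Refed_566 stood apart: it was the IR floxed library nearest to LIRKO in 49.8% of the genes that rose and in 57.3% of those that fell, against 11.5% to 20.4% for each of the other 3. The 11 hepatocyte markers were high in all 8 libraries but lower in LIRKO, with a mean level of 14.29 to 15.1 in LIRKO livers against 15.15 to 15.33 in IR floxed livers, no overlap and a median difference of -0.42. IR.KO_Refed_564 was the lowest at 14.29. Several of these markers were at the top of the range. The mean shift was -0.32, -1.05 and -0.17 within slides 184, 185 and 186. In a bulk sample fewer cells of a type and less RNA per cell cannot be told apart.

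Insulin receptor loss changed 2610 of 22485 genes in refed liver (11.6%), 1562 of them higher (6.95%) and 1048 lower (4.66%). The shares of 6.95% and 4.66% are the background for the counts of gene lists given below. Changes of at least 1 log2 numbered 535 (2.38%), 291 higher and 244 lower, and 1878 of the 2610 did not overlap between the groups (of all genes 13.5% did not, 7.57% with LIRKO higher and 5.9% with LIRKO lower). The median over all genes was -0.003. Without IR.fl_Refed_566, 2966 genes changed, 1702 higher and 1264 lower, and 2351 of the 2610 kept their call. Without IR.KO_Refed_553 or IR.fl_Refed_562 the count was 1726 or 1735. It was 1539 with only the 8 refed libraries in the fit, 1274 of them among the 2610, and 1554 with columns scaled to the same median and spread.

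Insr itself was lower in every LIRKO liver. It measured 6.298, 6.501, 6.58 and 6.68 in LIRKO livers, against 7.77, 7.79, 8.14 and 8.08 in IR floxed livers, so it fell by 1.51 ± 0.207, adjusted p = 1.16e-05 (2.84-fold), and the groups did not overlap. Whether this probe reads inside or outside the deleted part of the gene could not be told, so its level does not by itself check the labels. Downstream of the receptor, genes of the pathway changed in both directions. Irs2, the receptor substrate, was 11.25, 10.82, 11.31 and 10.68 in LIRKO livers, against 8.97, 8.62, 9.42 and 8.73 in IR floxed livers (it rose by 1.99 ± 0.261, adjusted p = 6.17e-06). Trib3, a pseudokinase that binds Akt, was 11.37, 10.88, 11.58 and 11.42 in LIRKO livers, against 9.63, 8.15, 9.03 and 8.27 in IR floxed livers (it rose by 2.48 ± 0.33, adjusted p = 7.2e-06). Pik3r1, the regulatory subunit of phosphoinositide 3-kinase, was 6.41, 6.89, 6.42 and 6.79 in LIRKO livers, against 8.12, 8.34, 8.29 and 8.27 in IR floxed livers (it fell by 1.695 ± 0.197, adjusted p = 9.19e-07). Every LIRKO liver lay above every IR floxed liver for Irs2 and Trib3 and below for Pik3r1. Of 28 insulin signalling genes measured, 2 rose (7.14%), 3 fell (10.7%) and 23 did not pass (median -0.04). Over all genes 6.95% rose and 4.66% fell, and the falls in the list include Insr itself. Irs1 (0.41 ± 0.216, adjusted p = 0.285) and Foxo1 (-0.33 ± 0.409, adjusted p = 0.76) were among those that did not pass. The third to fall was Gsk3b, the kinase that restrains glycogen synthase (-0.38 ± 0.105, adjusted p = 0.0157).

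**Figure D1:**
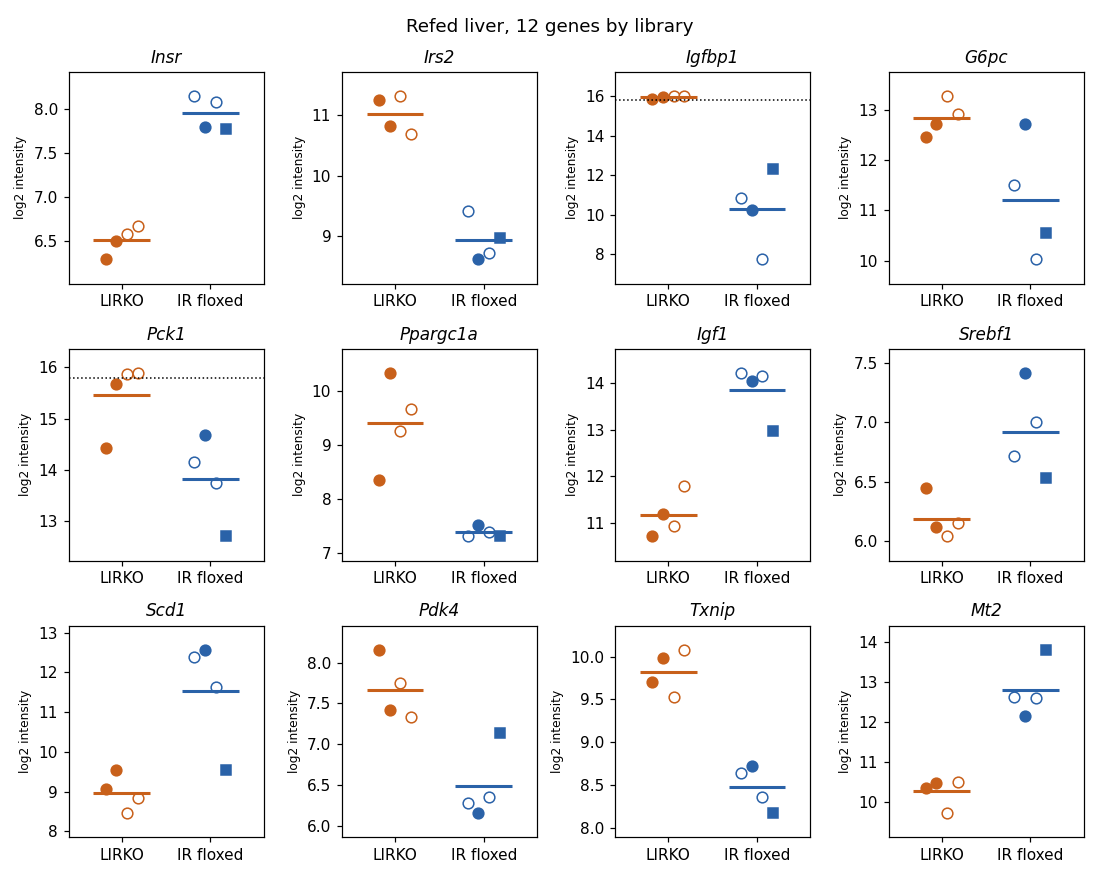
Log2 intensity (vertical axis) of 12 genes in each refed liver, LIRKO left and IR floxed right, with a bar at each group mean; filled points are Cy5 channels and open points Cy3, the square is IR.fl_Refed_566, and the dotted line is the start of the top of the range. Insr is lower in all 4 LIRKO livers (highest 6.68) than in any IR floxed liver (lowest 7.77), and all 4 LIRKO values of Igfbp1 lie above that line.

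Known FoxO1 targets were higher in LIRKO livers after the meal. Igfbp1, a secreted protein that binds IGF-1 and whose gene insulin represses, was 15.87, 15.94, 15.99 and 15.99 in LIRKO livers, against 12.31, 10.23, 10.85 and 7.75 in IR floxed livers. All 4 LIRKO livers were at the top of the range and the IR floxed livers were scattered over more than 4 log2, so Igfbp1 was at least 50.7-fold higher by the group means (fitted adjusted p = 8.36e-07). For G6pc, the enzyme that releases glucose, the values were 12.45, 12.72, 13.26 and 12.92 in LIRKO livers, against 10.56, 12.72, 11.51 and 10.03 in IR floxed livers (it rose by 1.62 ± 0.415, adjusted p = 0.00879), with IR.fl_Refed_508 inside the LIRKO range. Pck1, which commits oxaloacetate to glucose synthesis, had 14.43, 15.67, 15.88 and 15.88 in LIRKO livers, against 12.71, 14.67, 14.16 and 13.75 in IR floxed livers (it rose by 1.41 ± 0.413, adjusted p = 0.0235), with IR.KO_Refed_564 and IR.KO_Refed_565 at the top of the range. Ppargc1a, a coactivator of gluconeogenic genes, had 8.34, 10.34, 9.25 and 9.68 in LIRKO livers, against 7.31, 7.52, 7.31 and 7.39 in IR floxed livers (it rose by 1.68 ± 0.376, adjusted p = 0.00296), the groups well apart. Of the 16 gluconeogenesis genes measured these 3 rose, 2 fell and 11 did not pass (median 0.14). The falls were Pcx, pyruvate carboxylase (-0.48 ± 0.133, adjusted p = 0.0163), and Hnf4a, a hepatocyte transcription factor (-0.42 ± 0.133, adjusted p = 0.0357). G6pc did not pass without IR.fl_Refed_562 (adjusted p = 0.123), Pck1 in 5 of the 8 fits that leave out 1 library (up to 0.0879 without IR.fl_Refed_566), Pcx in 3 (up to 0.185) and Hnf4a in 5 (up to 0.205). With only the 8 refed libraries in the fit, G6pc (0.159), Pck1 (0.0928) and Pcx did not pass.

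In the IGF axis 2 binding proteins rose and the hormone fell. Igf1 was 10.73, 11.21, 10.95 and 11.8 in LIRKO livers, against 12.97, 14.04, 14.202 and 14.14 in IR floxed livers, so it fell by 2.74 ± 0.247, adjusted p = 1.54e-08 or 6.66-fold, with no overlap. Igfals, the subunit that holds IGF-1 in its large circulating complex, was 7.92, 7.55, 7.34 and 8.01 in LIRKO livers, against 7.98, 10.27, 10.54 and 9.89 in IR floxed livers (it fell by 1.89 ± 0.319, adjusted p = 0.00015), where only IR.fl_Refed_566 of the IR floxed livers lay in the LIRKO range. Igfals did not pass with only the 8 refed libraries in the fit (adjusted p = 0.0797). Ghr, the growth hormone receptor, fell too (-1.38 ± 0.249, adjusted p = 0.000321). Igfbp2, a second binding protein, was 14.84, 15.09, 15.34 and 15.81 in LIRKO livers, against 13.67, 12.77, 12.64 and 13.27 in IR floxed livers (it rose by 2.12 ± 0.223, adjusted p = 1.93e-07), with IR.KO_Refed_565 at the top of the range. In all 2 of 14 members rose, 3 fell and 9 did not pass (median 0.08), the other binding proteins measured among the 9. The growth hormone feedback genes Socs2 (0.62 ± 0.543, adjusted p = 0.607) and Cish (0.79 ± 0.587, adjusted p = 0.515) did not pass.

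Lipogenic genes changed in both directions. Of 23 fatty acid synthesis genes 3 rose, 6 fell and 14 did not pass (median -0.2). Scd1, the desaturase that makes oleate, was 9.06, 9.54, 8.47 and 8.85 in LIRKO livers, against 9.55, 12.56, 12.397 and 11.64 in IR floxed livers (it fell by 2.64 ± 0.458, adjusted p = 0.000211), and IR.fl_Refed_566 was the lowest of the IR floxed livers. Acss2, which makes cytosolic acetyl-CoA from acetate, was 8.63, 8.48, 8.61 and 8.37 in LIRKO livers, against 9.298, 10.001, 9.46 and 9.66 in IR floxed livers (it fell by 1.204 ± 0.198, adjusted p = 0.000109). Dgat2, which esterifies diacylglycerol, fell by 0.78 ± 0.142, adjusted p = 0.000364. The groups did not overlap for Acss2 or Dgat2. Srebf1, the master regulator of lipogenesis in fed liver, was 6.45, 6.12, 6.04 and 6.16 in LIRKO livers, against 6.53, 7.41, 6.72 and 7.004 in IR floxed livers (it fell by 0.66 ± 0.207, adjusted p = 0.0364), and Acly, which makes cytosolic acetyl-CoA from citrate, fell by 0.62 ± 0.157, adjusted p = 0.00845. Fasn, the fatty acid synthase itself, was 7.33, 7.21, 6.88 and 7.14 in LIRKO livers, against 7.95, 7.84, 7.15 and 7.75 in IR floxed livers and did not pass (-0.53 ± 0.268, adjusted p = 0.254). The 3 rises were of the elongases Elovl5 (0.79 ± 0.211, adjusted p = 0.0122) and Elovl6 (1.17 ± 0.334, adjusted p = 0.0202) and of malic enzyme Me1 (0.701 ± 0.233, adjusted p = 0.0491). Srebf1 lost its call in 5 of the 8 fits that leave out 1 library (up to 0.182 without IR.fl_Refed_508) and with slide as a block (0.0618), Acly without IR.fl_Refed_508 (0.0553). With only the 8 refed libraries in the fit, Scd1 (0.0778), Srebf1 and Acly did not pass.

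Sterol synthesis genes that passed were all lower in LIRKO livers. Of 23 measured 0 rose, 8 fell and 15 did not pass, with a median of -1.0. Ebp, a late-pathway isomerase, was 12.61, 12.29, 12.54 and 12.24 in LIRKO livers, against 13.13, 13.51, 13.39 and 13.89 in IR floxed livers (it fell by 1.17 ± 0.143, adjusted p = 1.85e-06). Tm7sf2, a sterol reductase, was 10.65, 9.38, 11.22 and 10.96 in LIRKO livers, against 11.76, 13.02, 12.25 and 12.04 in IR floxed livers (it fell by 1.69 ± 0.254, adjusted p = 3.87e-05). Neither overlapped between the groups. Insig1, which retains SREBP in the endoplasmic reticulum, was 6.84, 6.17, 6.28 and 6.83 in LIRKO livers, against 6.503, 9.33, 8.23 and 8.95 in IR floxed livers (it fell by 1.86 ± 0.456, adjusted p = 0.00629), with IR.fl_Refed_566 inside the LIRKO range. Sc5d, another late enzyme, fell by 0.92 ± 0.238, adjusted p = 0.00945, and its call was lost without IR.fl_Refed_508 (0.0523). With only the 8 refed libraries in the fit, Tm7sf2 (0.0666), Insig1 (0.154) and Sc5d did not pass. Within slide 185, where the IR floxed library is IR.fl_Refed_566, the mean shift of the 23 genes was 0.0, against -0.69 on slide 184 and -1.20 on slide 186. The mean level was 8.61 to 9.64 in LIRKO livers and 9.29 to 10.59 in IR floxed livers, so the groups overlapped.

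Fatty acid oxidation genes that passed were all higher in LIRKO livers. Of 29 measured 15 rose, 0 fell and 14 did not pass (median 0.47), and the mean level was 12.70 to 12.89 in LIRKO livers against 12.01 to 12.54 in IR floxed livers, with no overlap. The mean shift was 0.40, 0.69 and 0.57 within slides 184, 185 and 186. Ehhadh, a peroxisomal enzyme of oxidation, was 13.76, 14.12, 14.55 and 14.29 in LIRKO livers, against 13.29, 12.28, 12.54 and 12.23 in IR floxed livers (it rose by 1.68 ± 0.292, adjusted p = 0.000206). Acot2, a mitochondrial thioesterase, was 8.05, 7.76, 8.19 and 7.26 in LIRKO livers, against 6.04, 5.67, 6.66 and 5.999 in IR floxed livers (it rose by 1.88 ± 0.331, adjusted p = 0.000254). For both, every LIRKO liver exceeded every IR floxed liver. Acadl, a chain-length specific dehydrogenase, rose by 0.88 ± 0.188, adjusted p = 0.00195. Angptl4, a secreted inhibitor of lipoprotein lipase, was 13.48, 13.54, 13.46 and 13.47 in LIRKO livers, against 11.05, 13.47, 12.98 and 10.75 in IR floxed livers (it rose by 1.404 ± 0.345, adjusted p = 0.00656), where IR.fl_Refed_508 reached the LIRKO level and the call was lost without IR.fl_Refed_562 (0.137). Of the 4 ketone synthesis genes measured, Bdh1 alone passed (1.06 ± 0.341, adjusted p = 0.0403), and it did not pass in 5 of the 8 fits that leave out 1 library (up to 0.197 without IR.fl_Refed_566). With only the 8 refed libraries in the fit, Angptl4 (0.266), Acadl and Bdh1 did not pass.

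Lipid droplet genes rose in part. Cidec, which fuses lipid droplets, was 11.43, 11.84, 11.78 and 11.31 in LIRKO livers, against 9.88, 7.53, 8.56 and 8.31 in IR floxed livers (it rose by 3.09 ± 0.512, adjusted p = 0.000123), and Plin2, a droplet coat protein of steatotic liver, was 14.38, 14.09, 14.01 and 13.61 in LIRKO livers, against 13.11, 12.79, 13.14 and 12.65 in IR floxed livers (it rose by 1.36 ± 0.295, adjusted p = 0.00225). Neither overlapped. Hilpda, an inhibitor of the lipase Pnpla2, rose by 0.66 ± 0.15, adjusted p = 0.00339, the fatty acid carrier Cd36 by 0.62 ± 0.155, adjusted p = 0.00784 and the nuclear receptor Pparg, which drives Cidec, by 0.96 ± 0.313, adjusted p = 0.0439. In all 5 of 19 droplet and lipolysis genes rose (26.3%, against 6.95% of all genes) and 1 fell (5.26%, against 4.66%), with a median of 0.14. Of 7 adipocyte markers 2 rose, Cidec and Pparg, while Adipoq averaged 5.36 and 5.37 in LIRKO and IR floxed livers, near the floor of the array, and Plin1 5.58 and 5.58 in LIRKO and IR floxed livers. Pparg lost its call in 7 of the 8 fits that leave out 1 library (up to 0.18 without IR.KO_Refed_553). Among 21 lipoprotein and sterol efflux genes 5 rose (23.8%) and 2 fell (9.52%). Apoc2, the activator of lipoprotein lipase, was at the top of the range in all 4 LIRKO livers against 14.28, 14.44, 14.77 and 13.43 in IR floxed livers, at least 3.21-fold higher (adjusted p = 7.35e-05). Npc1, which exports cholesterol from lysosomes, was 9.48, 9.55, 9.84 and 10.13 in LIRKO livers, against 8.597, 8.32, 8.66 and 8.38 in IR floxed livers (it rose by 1.27 ± 0.15, adjusted p = 1.24e-06), and the sterol exporter Abcg1 rose by 1.35 ± 0.221, adjusted p = 0.000104, while Apoc3, which slows triglyceride clearance, fell by 0.69 ± 0.172, adjusted p = 0.00721 and lost its call without IR.fl_Refed_562 (0.051).

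Genes that steer glucose between storage and oxidation changed in part. Pdk4, the kinase that shuts pyruvate dehydrogenase, was 8.15, 7.42, 7.75 and 7.33 in LIRKO livers, against 7.14, 6.16, 6.29 and 6.35 in IR floxed livers (it rose by 1.43 ± 0.3, adjusted p = 0.00167), with no overlap. Pdp1, the phosphatase that opens it, rose as well (0.57 ± 0.091, adjusted p = 7.29e-05), as did the pyruvate carrier subunit Mpc1 (0.49 ± 0.145, adjusted p = 0.0266). These were 3 of 11 members, and 0 fell. Txnip, a glucose-induced arrestin, was 9.71, 9.98, 9.53 and 10.08 in LIRKO livers, against 8.17, 8.72, 8.64 and 8.36 in IR floxed livers (it rose by 1.38 ± 0.204, adjusted p = 2.83e-05), the only call among 10 ChREBP-linked genes. Gys2, liver glycogen synthase, was 14.43, 15.601, 14.28 and 15.38 in LIRKO livers, against 12.78, 13.48, 13.88 and 12.54 in IR floxed livers (it rose by 1.77 ± 0.401, adjusted p = 0.00328), Ugp2, which makes UDP-glucose, rose by 1.14 ± 0.16, adjusted p = 1.46e-05, and Gyg, which primes glycogen, rose by 0.42 ± 0.119, adjusted p = 0.0176. Ppp1r3b, which targets the phosphatase to glycogen, was 12.72, 13.19, 12.87 and 12.82 in LIRKO livers, against 13.79, 14.28, 14.09 and 13.85 in IR floxed livers (it fell by 1.19 ± 0.26, adjusted p = 0.00239), the groups apart. Altogether 4 of 17 glycogen genes rose (23.5%, against 6.95% of all genes) and 1 fell (5.88%, against 4.66%), with a median of 0.06. Tkfc, which phosphorylates glyceraldehyde from fructose, was 13.56, 13.28, 13.62 and 13.47 in LIRKO livers, against 12.69, 12.16, 11.86 and 11.58 in IR floxed livers (it rose by 1.45 ± 0.24, adjusted p = 0.000123), 1 of 4 that rose among 17 glycolysis and fructose genes, beside Gapdh (adjusted p = 0.0179), Aldoa (0.82 ± 0.251, adjusted p = 0.0315) and Ldha (0.79 ± 0.244, adjusted p = 0.0318). Gapdh was at the top of the range in all 4 LIRKO livers and IR.fl_Refed_566, so that the size of its rise is not given. Gyg, Gapdh, Aldoa, Ldha and Mpc1 each lost the call without some library (adjusted p up to 0.15, 0.243, 0.154, 0.296 and 0.0955). With only the 8 refed libraries in the fit, these genes and Gys2 (0.0612) did not pass.

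Most male-biased liver genes fell. These genes depend on pulses of growth hormone and STAT5 in male liver. Of 18 measured 0 rose, 13 fell and 5 did not pass, with a median of -2.24. The mean level was 9.66 to 10.18 in LIRKO livers against 11.39 to 12.96 in IR floxed livers, with IR.fl_Refed_566 the lowest IR floxed liver at 11.39. Nat8, an acetyltransferase, was 6.89, 6.42, 6.66 and 6.79 in LIRKO livers, against 8.89, 11.65, 11.32 and 11.88 in IR floxed livers (it fell by 4.31 ± 0.407, adjusted p = 3.03e-08, 19.9-fold). Cyp4a12a, an arachidonate hydroxylase, was 9.301, 8.48, 8.94 and 7.64 in LIRKO livers, against 11.95, 13.09, 13.33 and 12.62 in IR floxed livers (it fell by 3.97 ± 0.357, adjusted p = 1.51e-08), and its neighbour Cyp4a12b fell by 3.57 ± 0.333, adjusted p = 2.65e-08; the probes of such close paralogues may share signal. Hsd3b5, a steroid reductase of male liver, was 6.99, 5.69, 7.43 and 6.83 in LIRKO livers, against 9.36, 12.42, 12.52 and 9.77 in IR floxed livers (it fell by 3.62 ± 0.698, adjusted p = 0.000691). Nudt7, a peroxisomal CoA hydrolase, was 11.67, 10.87, 11.44 and 10.97 in LIRKO livers, against 12.57, 14.104, 14.18 and 14.199 in IR floxed livers (it fell by 2.47 ± 0.271, adjusted p = 3.93e-07). None of these 5 overlapped between the groups. Mean shifts were -2.43, -1.23 and -3.02 within slides 184, 185 and 186.

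Female-biased genes that passed were all higher. Of 21 measured 11 rose, 0 fell and 10 did not pass, with a median of 0.82. Cyp2b13, a cytochrome near the floor of the array in control males, was 8.21, 9.49, 8.42 and 8.66 in LIRKO livers, against 5.45, 5.46, 5.496 and 5.803 in IR floxed livers (it rose by 2.95 ± 0.406, adjusted p = 1.14e-05). Cyp2b9, its paralogue, was 8.73, 9.27, 8.44 and 9.196 in LIRKO livers, against 8.32, 5.497, 5.43 and 6.01 in IR floxed livers (it rose by 2.54 ± 0.464, adjusted p = 0.000369), and IR.fl_Refed_566 alone among the IR floxed livers lay near the LIRKO range. Sult2a1, a steroid sulfotransferase, was 7.22, 9.37, 7.92 and 7.398 in LIRKO livers, against 5.63, 5.61, 5.58 and 5.69 in IR floxed livers (it rose by 2.201 ± 0.501, adjusted p = 0.00335). Tox, a DNA-binding protein, rose by 1.21 ± 0.202, adjusted p = 0.000138. Cyp2b9 did not pass with only the 8 refed libraries in the fit (0.0554). The mean level was 8.31 to 9.08 in LIRKO livers against 7.37 to 7.92 in IR floxed livers.

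**Figure D2:**
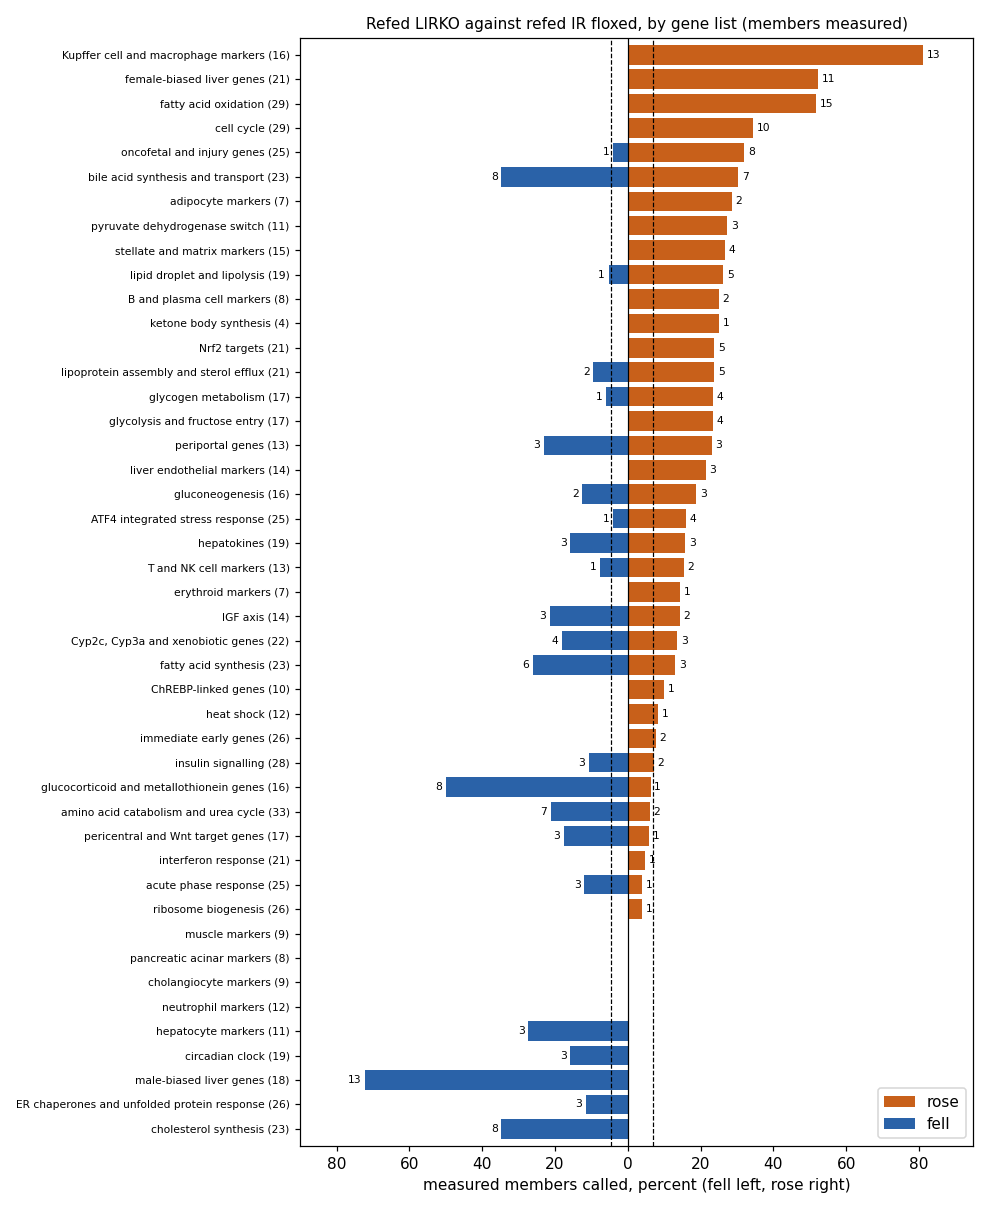
Share of measured members (horizontal axis, percent) of each of 45 gene lists that rose (right, orange) or fell (left, blue) in refed LIRKO livers against refed IR floxed livers, with numbers of members called at the bar ends; dashed lines mark the background over all genes, 6.95% higher and 4.66% lower. The macrophage markers (13 of 16) lead the rises and the male-biased genes (13 of 18) lead the falls.

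Bile acid genes changed in most of their members and in both directions, 7 of 23 up, 8 down and 8 not passing. Synthesis genes were among the falls. Cyp7b1, of the acidic synthesis route, was 10.43, 9.69, 10.33 and 10.38 in LIRKO livers, against 12.04, 13.95, 14.195 and 13.46 in IR floxed livers (it fell by 3.102 ± 0.412, adjusted p = 7.18e-06), and Cyp7a1, the rate-limiting enzyme of the classic route, was 7.83, 8.4, 10.17 and 8.76 in LIRKO livers, against 9.91, 10.13, 10.46 and 10.59 in IR floxed livers (it fell by 1.6 ± 0.518, adjusted p = 0.0425). Cyp7a1 overlapped through IR.KO_Refed_564, was higher in LIRKO by 0.26 within slide 185, and lost its call in 7 of the 8 fits that leave out 1 library (up to 0.17 without IR.KO_Refed_553). Nr1h4, the bile acid receptor FXR, was 11.06, 10.98, 11.24 and 11.16 in LIRKO livers, against 11.799, 12.09, 12.195 and 12.21 in IR floxed livers (it fell by 0.98 ± 0.129, adjusted p = 6.69e-06), with no overlap. Export genes were among the rises: Slc51b, a basolateral bile acid exporter, was 8.27, 8.63, 7.42 and 8.24 in LIRKO livers, against 6.69, 5.54, 5.95 and 6.64 in IR floxed livers (it rose by 1.92 ± 0.229, adjusted p = 1.38e-06), and Abcb4, the canalicular phospholipid floppase, was 14.21, 13.96, 13.93 and 14.19 in LIRKO livers, against 12.899, 13.32, 13.33 and 12.597 in IR floxed livers (it rose by 1.22 ± 0.176, adjusted p = 2.14e-05). Slc10a2, a bile acid importer best known from ileum and bile duct, was outside the list and stood among the largest falls, at 5.91, 5.64, 5.72 and 5.92 in LIRKO livers, against 9.19, 10.604, 10.34 and 10.35 in IR floxed livers (it fell by 4.36 ± 0.247, adjusted p = 2.57e-12). All LIRKO values of Slc10a2 were near the floor of the array, so the fall may be larger than the value given. Without IR.fl_Refed_566, 5 in place of 8 of the 23 fell.

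Drug-metabolising cytochromes split as well, 3 of 22 xenobiotic genes up, 4 down. Cyp2c70, which makes muricholic acids in mice, was 10.805, 10.36, 10.08 and 10.91 in LIRKO livers, against 13.79, 14.54, 14.03 and 14.98 in IR floxed livers (it fell by 3.64 ± 0.437, adjusted p = 1.5e-06). Cyp2f2, a periportal cytochrome, was 12.52, 12.51, 11.85 and 12.73 in LIRKO livers, against 14.94, 15.87, 15.93 and 15.898 in IR floxed livers (it fell by 3.16 ± 0.408, adjusted p = 4.81e-06), with 3 IR floxed livers at the top of the range, so that the IR floxed level is a lower limit and the size of the fall is not exact. Cyp2j5, an epoxygenase, fell by 1.58 ± 0.189, adjusted p = 1.46e-06, Cyp1a2, a pericentral cytochrome, fell by 1.73 ± 0.347, adjusted p = 0.00105, and Cyp2c39 rose by 1.66 ± 0.281, adjusted p = 0.000155. None of these overlapped. Pericentral genes counted 1 of 17 up (5.88%, against 6.95% of all genes) and 3 down (17.6%, against 4.66%). The rise was that of Rhbg, an ammonia channel (0.95 ± 0.261, adjusted p = 0.0155). Among the falls were Rgn (-2.002 ± 0.527, adjusted p = 0.011) and Lect2 (-1.06 ± 0.319, adjusted p = 0.0269). Periportal genes counted 3 of 13 up and 3 down (23.1% each), with Cdh1 (1.36 ± 0.282, adjusted p = 0.00143) among the rises. Rgn, Rhbg and Lect2 lost their calls in 2, 3 and 3 of the 8 fits that leave out 1 library (up to 0.0613 without IR.fl_Refed_508, 0.0836 without IR.KO_Refed_553 and 0.122 without IR.KO_Refed_564), and Lect2 with slide as a block too (0.0687). Without IR.KO_Refed_564, 1 of the 13 periportal genes rose. With only the 8 refed libraries in the fit, Cdh1 (0.0733), Rgn (0.0759), Rhbg (0.0641) and Lect2 did not pass.

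The 24 largest changes, taken among genes of above-median level without overlap, mixed secreted, fetal and metabolic genes. After Igfbp1 the rises were led by Tff3, a mucosal trefoil peptide, at 12.61, 9.98, 12.55 and 12.25 in LIRKO livers, against 7.55, 6.76, 6.97 and 8.01 in IR floxed livers (it rose by 4.23 ± 0.918, adjusted p = 0.0022), and by H19, an imprinted fetal RNA, at 11.29, 10.86, 10.01 and 10.05 in LIRKO livers, against 5.41, 5.54, 5.43 and 7.603 in IR floxed livers (it rose by 4.05 ± 0.642, adjusted p = 7.12e-05). H19 was close to the floor of the array in 3 IR floxed livers, and IR.fl_Refed_562 was the highest of them. Serpinb1a, a leukocyte elastase inhibitor and hepatokine, was 10.04, 9.98, 10.72 and 10.02 in LIRKO livers, against 6.16, 6.202, 6.38 and 6.38 in IR floxed livers (it rose by 3.95 ± 0.484, adjusted p = 2.14e-06). Next came Tuba8, an alpha-tubulin (3.45 ± 0.49, adjusted p = 1.72e-05), Krt23, a keratin (3.41 ± 0.567, adjusted p = 0.000128), Cd63, a tetraspanin (3.26 ± 0.315, adjusted p = 4.61e-08), Ifi27l2b (3.24 ± 0.351, adjusted p = 3.21e-07), Igdcc4 (3.197 ± 0.44, adjusted p = 1.17e-05), B4galnt1, a ganglioside synthase (3.07 ± 0.759, adjusted p = 0.00689), and Rgs16, a feeding-linked regulator of G protein signalling (3.06 ± 0.679, adjusted p = 0.00271), with Cidec as above. Rgs16 lost its call without IR.fl_Refed_562 (0.0504). Tuba8 was 11.54, 11.14, 11.72 and 11.68 in LIRKO livers, against 10.17, 6.46, 7.34 and 8.37 in IR floxed livers.

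Among the falls, Serpina4-ps1 was 8.095, 5.64, 7.29 and 7.21 in LIRKO livers, against 9.64, 14.12, 14.06 and 12.05 in IR floxed livers (it fell by 4.83 ± 0.74, adjusted p = 4.66e-05, 28.5-fold), with wide spread in both groups. Nat8f5, a relative of Nat8, was 5.88, 5.69, 5.87 and 5.95 in LIRKO livers, against 9.003, 10.27, 10.001 and 10.88 in IR floxed livers (it fell by 4.29 ± 0.256, adjusted p = 6.93e-12), with all LIRKO values near the floor of the array, so that the fall and the differences of effects given for it below are not exact. Ces1f, a carboxylesterase that hydrolyses lipids and drugs, was 8.75, 8.14, 8.44 and 8.6 in LIRKO livers, against 11.18, 13.49, 13.01 and 13.33 in IR floxed livers (it fell by 4.25 ± 0.401, adjusted p = 3.03e-08). Every LIRKO liver was over 2 log2 below every IR floxed liver for both. Saa4, a constitutive apolipoprotein of the serum amyloid family, was 8.51, 8.46, 8.38 and 8.897 in LIRKO livers, against 10.52, 12.898, 12.81 and 13.11 in IR floxed livers (it fell by 3.93 ± 0.381, adjusted p = 4.69e-08), Myom2, which encodes a sarcomere protein, fell by 3.68 ± 0.386, adjusted p = 1.93e-07 and Car3, an abundant carbonic anhydrase of male liver and fat, fell by 3.51 ± 0.738, adjusted p = 0.00165. Together with Slc10a2, Nat8, Cyp4a12a, Cyp4a12b, Cyp2c70 and Hsd3b5 these are the 12 largest falls, and in 11 of the 12 IR.fl_Refed_566 was the lowest IR floxed library.

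**Figure D3:**
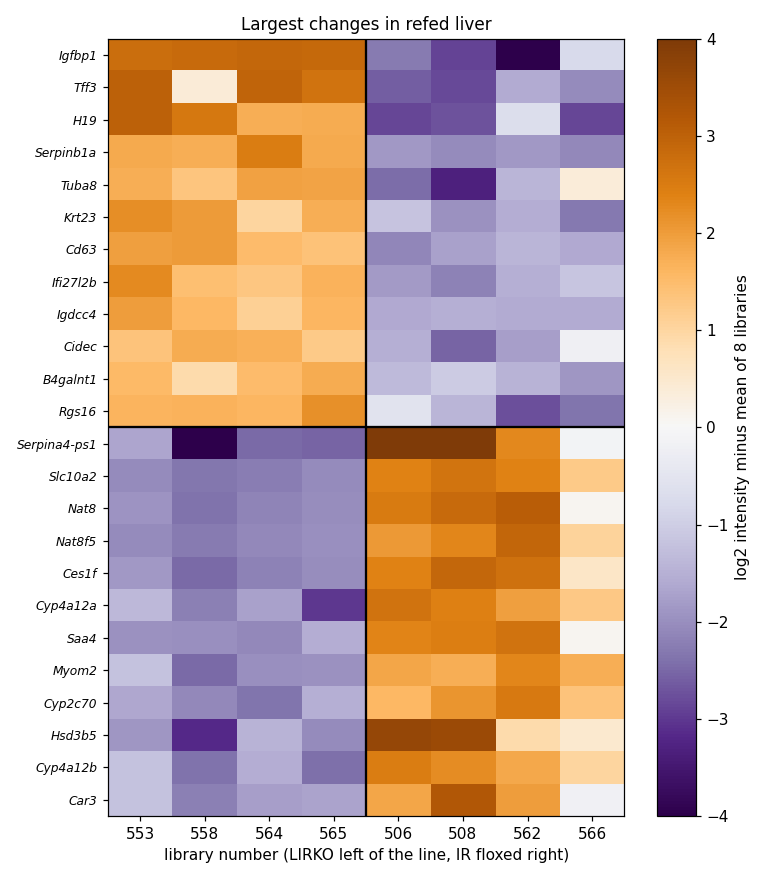
Log2 intensity minus the gene's mean over the 8 libraries (colour, orange higher and purple lower) for the 12 largest rises (upper rows) and 12 largest falls (lower rows); columns are the 4 LIRKO livers on the left and the 4 IR floxed livers on the right, by library number. In 11 of the 12 falls IR.fl_Refed_566 is the lowest IR floxed liver.

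Fetal and injury-linked liver genes rose in part. Of 25 measured 8 rose and 1 fell (median 0.46). Afp, the fetal serum protein, was 9.25, 8.35, 8.298 and 8.04 in LIRKO livers, against 6.98, 6.14, 6.16 and 6.198 in IR floxed livers (it rose by 2.15 ± 0.221, adjusted p = 1.39e-07), and Ly6d, which encodes a surface protein, was 8.37, 8.52, 8.74 and 8.497 in LIRKO livers, against 5.71, 6.04, 6.16 and 6.18 in IR floxed livers (it rose by 2.38 ± 0.405, adjusted p = 0.000167). H19, Tff3 and Cd63, given above, belong to the same list, and its mean level was 8.13 to 8.52 in LIRKO livers against 7.30 to 7.53 in IR floxed livers. Of 29 cell cycle genes 10 rose and 0 fell. They were the 6 subunits Mcm2 to Mcm7 of the replicative helicase (Mcm2 1.61 ± 0.23, adjusted p = 1.87e-05, Mcm4 1.44 ± 0.266, adjusted p = 0.000444), the cyclins Ccnd1 and Ccnd2, the inhibitor Cdkn2c and the mitotic kinase Aurka. Mcm3 was 9.14, 9.26, 8.18 and 9.18 in LIRKO livers, against 7.17, 7.64, 7.23 and 7.27 in IR floxed livers (it rose by 1.63 ± 0.208, adjusted p = 3.81e-06) and Mcm5 was 8.13, 8.16, 6.84 and 8.36 in LIRKO livers, against 6.12, 6.28, 6.36 and 6.29 in IR floxed livers (it rose by 1.59 ± 0.315, adjusted p = 0.000887), with IR.KO_Refed_564 the lowest of its group for both. Mki67, Cdk1, Ccna2 and Top2a, which mark cycling cells, had differences of 0.14, -0.02, 0.03 and 0.05 and did not pass; these 4 were picked after their values were seen.

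Macrophage genes rose in LIRKO livers, with the largest called share of the 45 lists. Of 16 Kupffer cell and macrophage markers 13 rose (81.2%, against 6.95% of all genes) and 0 fell (median 1.23). In 14 of the 16 the groups did not overlap, with LIRKO higher, which held for 7.57% of all genes. Their mean level was 8.58 to 8.65 in LIRKO livers against 7.44 to 7.66 in IR floxed livers. Their summed linear signal was 16020 to 19373 in LIRKO livers and 5555 to 6477 in IR floxed livers. Cd5l, a macrophage-secreted scavenger protein, was 11.54, 11.89, 11.84 and 11.74 in LIRKO livers, against 9.35, 9.54, 9.88 and 10.23 in IR floxed livers (it rose by 1.88 ± 0.275, adjusted p = 2.59e-05). Vsig4, a complement receptor of Kupffer cells, was 10.72, 10.73, 10.49 and 10.73 in LIRKO livers, against 8.93, 9.08, 9.38 and 9.11 in IR floxed livers (it rose by 1.55 ± 0.247, adjusted p = 7.16e-05). Adgre1, which encodes F4/80, was 7.798, 8.48, 7.71 and 7.83 in LIRKO livers, against 6.74, 6.86, 6.696 and 6.72 in IR floxed livers (it rose by 1.24 ± 0.199, adjusted p = 8.37e-05), and C1qa, a complement subunit made by macrophages, rose by 1.33 ± 0.213, adjusted p = 7.77e-05. Mean shifts were 0.93, 1.06 and 1.21 within slides 184, 185 and 186 and 0.91 within the shared array. Without IR.fl_Refed_566, 13 of the 16 rose, and without IR.KO_Refed_564, 11. Hepatocyte marker levels did not overlap either and were lower in LIRKO, as given above, with a summed linear signal of 264381 to 467617 in LIRKO livers against 467967 to 522259 in IR floxed livers. Their part in the macrophage result was not tested.

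Other cell types had fewer markers called. Liver endothelial markers counted 3 of 14 up (Cdh5 0.54 ± 0.133, adjusted p = 0.00656; Rspo3 0.61 ± 0.152, adjusted p = 0.00727; Oit3 0.69 ± 0.186, adjusted p = 0.0133) and stellate and matrix markers 4 of 15 (Lrat 0.66 ± 0.137, adjusted p = 0.00136; Dcn, Lum and Sparc), of which 2 rose without IR.fl_Refed_566 and 2 without IR.KO_Refed_564. Dcn, Lum and Sparc lost their calls with slide as a block (adjusted p = 0.106, 0.0608 and 0.189) and in 6, 5 and 6 of the 8 fits that leave out 1 library (up to 0.173, 0.203 and 0.153, each without IR.KO_Refed_553). Rspo3 lost its call without 1 library (0.0567 without IR.KO_Refed_553) and Oit3 in 2 such fits (up to 0.0748 without the same library). Cdh5 did not pass with only the 8 refed libraries in the fit (0.075). T and NK markers counted 2 of 13 up, Gzma (0.797 ± 0.142, adjusted p = 0.000295) and Thy1 (0.67 ± 0.19, adjusted p = 0.0195), and 1 down, Cd3e (-0.46 ± 0.142, adjusted p = 0.0314). These are 15.4% up and 7.69% down, against 6.95% and 4.66% of all genes. Thy1 was lost in 3 of the 8 fits (up to 0.0828 without IR.KO_Refed_565), and Cd3e in 5 (up to 0.134 without IR.fl_Refed_508) and with slide as a block (0.0973). B cell markers counted 2 of 8 up (Cd79b 0.59 ± 0.177, adjusted p = 0.0267; Ms4a1 0.205 ± 0.059, adjusted p = 0.0218), with the B cell antigen receptor gene Cd79a near the floor of the array in all 8 livers (5.45 to 5.64). Both B cell calls were lost with slide as a block (0.0716 for Cd79b and 0.132 for Ms4a1) and in 3 and 5 of the 8 fits (up to 0.227 and 0.158, both without IR.KO_Refed_553). Neutrophil (0 of 12), cholangiocyte (0 of 9), pancreatic acinar (0 of 8) and muscle (0 of 9) markers had no call, and erythroid markers had 1 of 7, Epor, which was lost in 6 of the 8 fits (up to 0.296 without IR.KO_Refed_553). The acinar mean level was 6.06 to 6.19 in LIRKO and 6.3 to 6.44 in IR floxed refed livers. It was 11.65 in IRF.KO_Refed_478, 10.76 in IR.fl_GTT_659 and 9.54 in IR.fl_Fast_486, which enter the comparisons given below. The part of this pancreatic signal in those comparisons was not tested. Of 11 hepatocyte markers 3 fell, Ttr, which carries thyroid hormone (-1.74 ± 0.253, adjusted p = 2.42e-05), Serpina1c (adjusted p = 0.0195, at the top of the range in all IR floxed livers and 1 LIRKO liver, so that the size of its fall is not given) and Hnf4a. Without IR.KO_Refed_564, 1 in place of 3 fell. Serpina1c was lost in 3 of the 8 fits (up to 0.121 without that library). The part of these markers in the other lists' changes was not tested.

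Many glucocorticoid-induced and metallothionein genes fell. Of 16 measured 1 rose, 8 fell and 7 did not pass (median -0.48). Mt2, a metal-binding protein, was 10.35, 10.48, 9.72 and 10.51 in LIRKO livers, against 13.81, 12.15, 12.64 and 12.62 in IR floxed livers (it fell by 2.53 ± 0.361, adjusted p = 1.8e-05), Tsc22d3, the glucocorticoid-induced leucine zipper, was 9.26, 10.096, 9.53 and 10.39 in LIRKO livers, against 10.85, 11.53, 11.33 and 10.97 in IR floxed livers (it fell by 1.52 ± 0.341, adjusted p = 0.00304), and Fkbp5, the receptor's cochaperone, fell by 1.16 ± 0.234, adjusted p = 0.00111. None of these 3 overlapped. Hsd11b1, which regenerates active glucocorticoid, fell by 1.68 ± 0.33, adjusted p = 0.000841, but did not pass with only the 8 refed libraries in the fit (0.0781). Clock genes counted 3 of 19 down, Per1 (-1.23 ± 0.374, adjusted p = 0.0297), Per2 (-0.94 ± 0.285, adjusted p = 0.0294) and Hlf (-0.65 ± 0.179, adjusted p = 0.0148); Per1 and Per2 lost their calls without some library (up to 0.365 and 0.17) and with slide as a block (0.132 and 0.14). Without IR.KO_Refed_564, 1 of the 19 fell.

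In the stress and acute phase lists a minority of members changed. The share that rose was 23.8% for Nrf2 targets and 16% for the ATF4 list, against 6.95% of all genes. Heat shock (8.33%) and interferon genes (4.76%) lay near that share. The share that fell was 11.5% for the endoplasmic reticulum list and 12% for acute phase genes, against 4.66% of all genes. Of 26 genes of the endoplasmic reticulum and its unfolded protein response 3 fell: Herpud1, of the degradation machinery, at 11.19, 11.59, 11.08 and 12.07 in LIRKO livers, against 13.64, 13.35, 13.43 and 14.03 in IR floxed livers (it fell by 2.29 ± 0.303, adjusted p = 6.74e-06), Syvn1, a ubiquitin ligase (-1.402 ± 0.386, adjusted p = 0.0154), and its partner Sel1l (-0.82 ± 0.2, adjusted p = 0.00635). Syvn1 was 0.21 higher in LIRKO within slide 186, and Syvn1 and Sel1l lost their calls without IR.fl_Refed_562 (0.32 and 0.109). Without IR.KO_Refed_564, 6 of the 26 fell. In the ATF4 list 4 of 25 rose and 1 fell; Trib3 is given above, and Atf5 (1.42 ± 0.295, adjusted p = 0.00145), Psat1, of serine synthesis (1.07 ± 0.275, adjusted p = 0.0094), and Psph (0.56 ± 0.171, adjusted p = 0.0321) joined it. Psph was lost with slide as a block (0.185) and in 6 of the 8 fits that leave out 1 library (up to 0.225 without IR.KO_Refed_553), and Psat1 in 2 (up to 0.104 without IR.fl_Refed_562). Without IR.KO_Refed_564, 2 of the 25 rose. With only the 8 refed libraries in the fit, Atf5 (0.121), Psat1 (0.146), Psph, Syvn1 (0.262) and Sel1l (0.121) did not pass. Fgf21, the fasting hormone, was 6.86, 6.91, 6.69 and 6.83 in LIRKO livers, against 6.66, 8.29, 9.07 and 7.24 in IR floxed livers and did not pass (-0.88 ± 0.498, adjusted p = 0.327). Of 25 acute phase genes 1 rose, Il1rn (0.74 ± 0.122, adjusted p = 0.000112), and 3 fell, Saa4, the metalloreductase gene Steap4 (-1.53 ± 0.288, adjusted p = 0.000537) and Crp (-0.78 ± 0.189, adjusted p = 0.00584), lost in 2 of the 8 fits (up to 0.0761 without IR.fl_Refed_562). Among Nrf2 targets 5 of 21 rose, with the exporter Abcc4 (1.05 ± 0.166, adjusted p = 6.69e-05), Hmox1 (0.96 ± 0.219, adjusted p = 0.00346), Nqo1 (0.46 ± 0.133, adjusted p = 0.0206) and Srxn1 (0.94 ± 0.301, adjusted p = 0.0399). Srxn1 was lost with slide as a block (0.0511) and in 6 of the 8 fits (up to 0.22 without IR.fl_Refed_508), and Nqo1 in 4 (up to 0.124 without IR.fl_Refed_506). Without IR.KO_Refed_564, 2 of the 21 rose. Hmox1 (0.0846), Nqo1 (0.0854) and Srxn1 did not pass with only the 8 refed libraries in the fit. Heat shock genes had 1 call in 12, Hspb1 at 14.85, 14.47, 14.54 and 14.38 in LIRKO livers, against 12.796, 12.602, 12.201 and 13.02 in IR floxed livers (it rose by 2.04 ± 0.381, adjusted p = 0.000482), and interferon genes 1 in 21, Oasl2 (0.68 ± 0.202, adjusted p = 0.0243), lost in 4 of the 8 fits (up to 0.153 without IR.KO_Refed_553).

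Amino acid genes counted 2 of 33 up (6.06%, against 6.95% of all genes) and 7 down (21.2%, against 4.66%), with a median of -0.37. Prodh, proline oxidase, was 11.81, 12.14, 11.83 and 11.69 in LIRKO livers, against 13.398, 13.24, 12.88 and 13.58 in IR floxed livers (it fell by 1.47 ± 0.197, adjusted p = 8.22e-06), Haao, of tryptophan breakdown, fell by 0.94 ± 0.156, adjusted p = 0.000133, and Uroc1, of histidine breakdown, fell by 0.93 ± 0.186, adjusted p = 0.000951. Hpd, of tyrosine breakdown, rose by 0.82 ± 0.173, adjusted p = 0.00167, but did not pass with only the 8 refed libraries in the fit. Without IR.KO_Refed_564, 4 of the 33 fell. Among 19 hepatokines 3 rose and 3 fell. Fst, which binds activins, was 10.24, 10.12, 10.72 and 9.88 in LIRKO livers, against 8.38, 6.28, 7.06 and 7.47 in IR floxed livers (it rose by 2.903 ± 0.589, adjusted p = 0.00115), and Inhbe, an activin subunit, was 8.72, 8.37, 8.6 and 7.99 in LIRKO livers, against 8.68, 10.55, 10.43 and 10.56 in IR floxed livers (it fell by 1.63 ± 0.38, adjusted p = 0.00418) with IR.fl_Refed_566 inside the LIRKO range. Lepr, the leptin receptor, rose by 1.02 ± 0.305, adjusted p = 0.0259, with IR.fl_Refed_566 again inside it. Its call was lost in 6 of the 8 fits that leave out 1 library (up to 0.12 without IR.fl_Refed_508) and with only the 8 refed libraries in the fit (0.216). Inhbe did not pass in that last fit either (0.0808). Without IR.KO_Refed_564, 1 of the 19 hepatokines fell. Angptl8, a feeding-induced hormone, was 12.195, 12.47, 12.24 and 11.37 in LIRKO livers, against 13.903, 12.04, 12.32 and 14.29 in IR floxed livers and did not pass (-1.02 ± 0.489, adjusted p = 0.216). Immediate early genes (2 of 26 up, Ier3 0.98 ± 0.187, adjusted p = 0.000617 and Nr4a2 0.71 ± 0.164, adjusted p = 0.00368) and ribosome biogenesis genes (1 of 26 up, Pes1 0.97 ± 0.211, adjusted p = 0.00228) lay near the background.

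The receptor's effect in refed liver was set beside its effect in the fasted liver, where 1812 genes changed (8.06%), 930 higher (4.14%) and 882 lower (3.92%). Of the refed rises 547 were rises in the fasted state too (35% of the refed and 58.8% of the fasted rises), and of the refed falls 429 (40.9% and 48.6%). Tested as a difference of effects, 37 genes passed (0.165%), 22 with a higher (0.0978%) and 15 with a lower effect (0.0667%) in refed mice. Ccr3, a chemokine receptor, had an effect of 0.96 refed and -0.27 fasted (difference adjusted p = 0.00172). For Fbxo21, a ubiquitin ligase subunit, the effects were 1.44 and -0.38 (adjusted p = 0.00214), for the transporter Flvcr2 1.27 and -0.17 (adjusted p = 0.00214), for Sat2 0.77 and -0.46 (adjusted p = 0.0221) and for the cyclin Ccnd3 1.53 and 0.51 (adjusted p = 0.0221). All 5 had the higher effect in refed mice. On the other side, Nat8f5 had effects of -4.29 refed and -2.09 fasted (adjusted p = 0.0128), Herpud1 -2.29 and 0.002 (adjusted p = 0.0302), and Pdk4 1.43 and 3.78 (adjusted p = 0.0221). Hilpda (0.66 and 1.75, adjusted p = 0.0357) and the cytokine receptor Tnfrsf12a (0.46 and 2.16, adjusted p = 0.0163) also had smaller effects refed than fasted. The 16 macrophage markers had a median effect of 0.30 fasted, and no single marker passed the test of the difference. The count of 37 was 3 with slide as a block and depended on single libraries. It was 66 without IR.fl_Refed_566. It was 17, 11 and 14 without IR.KO_Refed_553, IR.KO_Refed_558 and IR.KO_Refed_564, and 3 without IR.KO_Fast_505. Without the other refed controls IR.fl_Refed_508, IR.fl_Refed_506 and IR.fl_Refed_562 it was 21, 7 and 6, and without the fasted controls IR.fl_Fast_542, IR.fl_Fast_552, IR.fl_Fast_491 and IR.fl_Fast_486 it was 13, 24, 16 and 4.

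Refed LIRFKO livers, which lack FoxO1 as well, differed from refed IR/FoxO1 floxed livers in 83 genes (0.369%), 32 higher (0.142%) and 51 lower (0.227%). Of the refed LIRKO rises 17 were also rises there and of the falls 28, which are 53.1% and 54.9% of the LIRFKO calls. The LIRKO and LIRFKO effects come from different floxed lines, each with its own control, so line and FoxO1 deletion cannot be told apart. The difference between the effects passed for 297 genes (1.32%), 194 with the higher (0.863%) and 103 with the lower effect (0.458%) in LIRKO. With slide as a block these counts were 62 and 32, and with only the groups compared 345 and 197. They were 385 and 265 without IR.fl_Refed_566, 98 and 53 without IRF.fl_Refed_467, 118 and 60 without IRF.fl_Refed_472, and the higher count was 115 without IR.KO_Refed_553. The lower count was 68 without IRF.KO_Refed_468 and 64 without IRF.fl_Refed_473. Foxo1 itself had an effect of -0.33 in LIRKO and -2.996 in LIRFKO (2.67 ± 0.605, adjusted p = 0.0202). Insr had effects of -1.51 in LIRKO and -1.56 in LIRFKO (0.06 ± 0.306, adjusted p = 0.974). Igf1 was -2.74 in LIRKO and -0.17 in LIRFKO (difference -2.57 ± 0.365, adjusted p = 0.000145). For Igfbp1 the effects were 5.88, read at the top of the range, and 1.66 (4.22 ± 1, adjusted p = 0.0286), for Igfbp2 2.12 and -0.14 (2.27 ± 0.33, adjusted p = 0.000175), and for Irs2 1.99 and 0.403 (1.58 ± 0.386, adjusted p = 0.0342). For Igf1, Igfbp1, Igfbp2 and Irs2 the effect in LIRFKO was the smaller one. G6pc (1.62 and 1.04, 0.58 ± 0.613, adjusted p = 0.792) and Pck1 (1.41 and 1.41, -0.01 ± 0.61, adjusted p = 0.998) did not pass as differing. With SEs of this size a smaller LIRFKO effect could be missed for either gene. For Pck1 IR.KO_Refed_564 and IR.KO_Refed_565 were also at the top of the range.

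Other genes passed the same test. Igf2bp3, a fetal RNA-binding protein, averaged 7.33, 5.43, 5.38 and 5.38 in that order in LIRKO, IR floxed, LIRFKO and IR/FoxO1 floxed refed livers (difference of effects 1.86 ± 0.121, adjusted p = 1.53e-10). Mgst2, a glutathione transferase, averaged 8.699, 5.62, 5.67 and 5.95 in the same order (2.995 ± 0.332, adjusted p = 4.73e-06). Slc10a2 averaged 5.798, 10.12, 9.56 and 9.996 (-3.83 ± 0.365, adjusted p = 3.79e-07), its LIRKO level near the floor. In each the LIRKO group alone stood apart from the other 3 groups. Further differences were in the decapping factor Dcp1b (1.46 ± 0.148, adjusted p = 8.82e-07), the channel Trpm4 (1.15 ± 0.131, adjusted p = 5.29e-06), Afp (2.42 ± 0.327, adjusted p = 7.81e-05), Serpinb1a (4.99 ± 0.715, adjusted p = 0.000159), Slc51b (2.49 ± 0.338, adjusted p = 7.95e-05) and Npc1 (1.73 ± 0.222, adjusted p = 3.74e-05) with the higher effect in LIRKO. Nat8f5 (-3.36 ± 0.379, adjusted p = 5.29e-06), Aldh1a7, a retinaldehyde dehydrogenase (-2.21 ± 0.319, adjusted p = 0.000169), Slco2b1, an anion transporter (-1.704 ± 0.263, adjusted p = 0.000425), and Mt2 (-2.84 ± 0.533, adjusted p = 0.00408) had the lower effect. Of the 18 male-biased genes 7 differed, among them Cyp4a12a (-3.19 ± 0.528, adjusted p = 0.00101), Nat8 (-3.53 ± 0.601, adjusted p = 0.00133), Nudt7 (-1.92 ± 0.401, adjusted p = 0.0101) and Cyp7b1 (-2.52 ± 0.609, adjusted p = 0.0325). No macrophage marker did: their mean level was 8.58 to 8.65 in refed LIRKO, 7.78 to 8.25 in refed LIRFKO, 7.44 to 7.95 in refed IR/FoxO1 floxed and 7.44 to 7.66 in refed IR floxed livers.

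**Figure D4:**
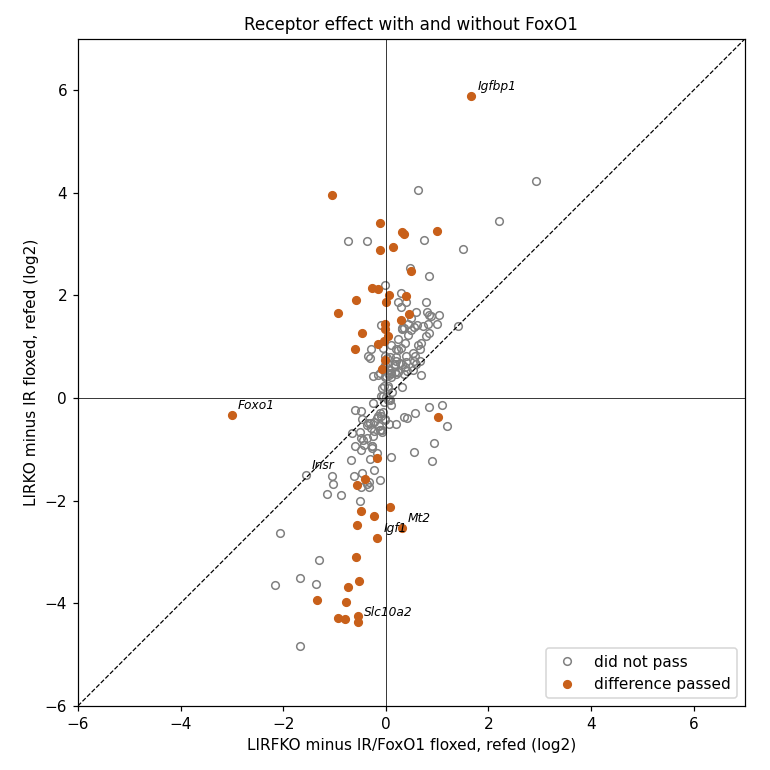
Effect of the receptor knockout in refed liver, LIRKO minus IR floxed (vertical axis, log2), against the effect of the double knockout, LIRFKO minus IR/FoxO1 floxed (horizontal axis, log2), for the 217 named genes; filled points passed the test of the difference, open points did not, and the dashed line is equality. Insr lies near the line (-1.51 and -1.56), while Igf1 (-2.74 and -0.17) and Slc10a2 (-4.36 and -0.54) lie far below it. The effects on the axes come from different floxed lines.

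After glucose the receptor changed 1866 genes (8.3%), 985 higher (4.38%) and 881 lower (3.92%). Of the refed rises 507 were rises after glucose too (32.5% of the refed and 51.5% of the glucose rises), and of the refed falls 343 (32.7% and 38.9%). In all 3 states 328 genes were higher and 254 lower in LIRKO livers. The fasted, glucose and refed comparisons use different mice. The effects refed and after glucose differed for 134 genes (0.596%), 77 with the higher (0.342%) and 57 with the lower effect (0.254%) in refed mice. Kbtbd11 had effects of 1.34 refed and -0.104 after glucose (adjusted p = 0.00935), Glod5 2.02 and 0.47 (adjusted p = 0.00935), B4galnt1 3.07 and -2.48 (adjusted p = 0.0197) and Cidec 3.09 and -0.12 (adjusted p = 0.0382). Lower effects in refed mice were those of Nat8f5 (-4.29 and -2.07, adjusted p = 0.013), Inhba, an activin subunit (-0.402 and 1.21, adjusted p = 0.013), and Adamts14, a procollagen protease (1.04 and 2.62, adjusted p = 0.013). This count also depended on single libraries. It was 37 and 68 without IR.KO_Refed_558 and IR.KO_Refed_565, and 1 and 449 without IR.KO_GTT_690 and IR.KO_GTT_697. Without the refed controls IR.fl_Refed_566, IR.fl_Refed_508 and IR.fl_Refed_562 it was 311, 6 and 84, and without the controls after glucose IR.fl_GTT_699, IR.fl_GTT_659 and IR.fl_GTT_691 it was 22, 435 and 7. With slide as a block it was 0, where limma left 1870 genes at an unadjusted p under 0.05.

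**Figure D5:**
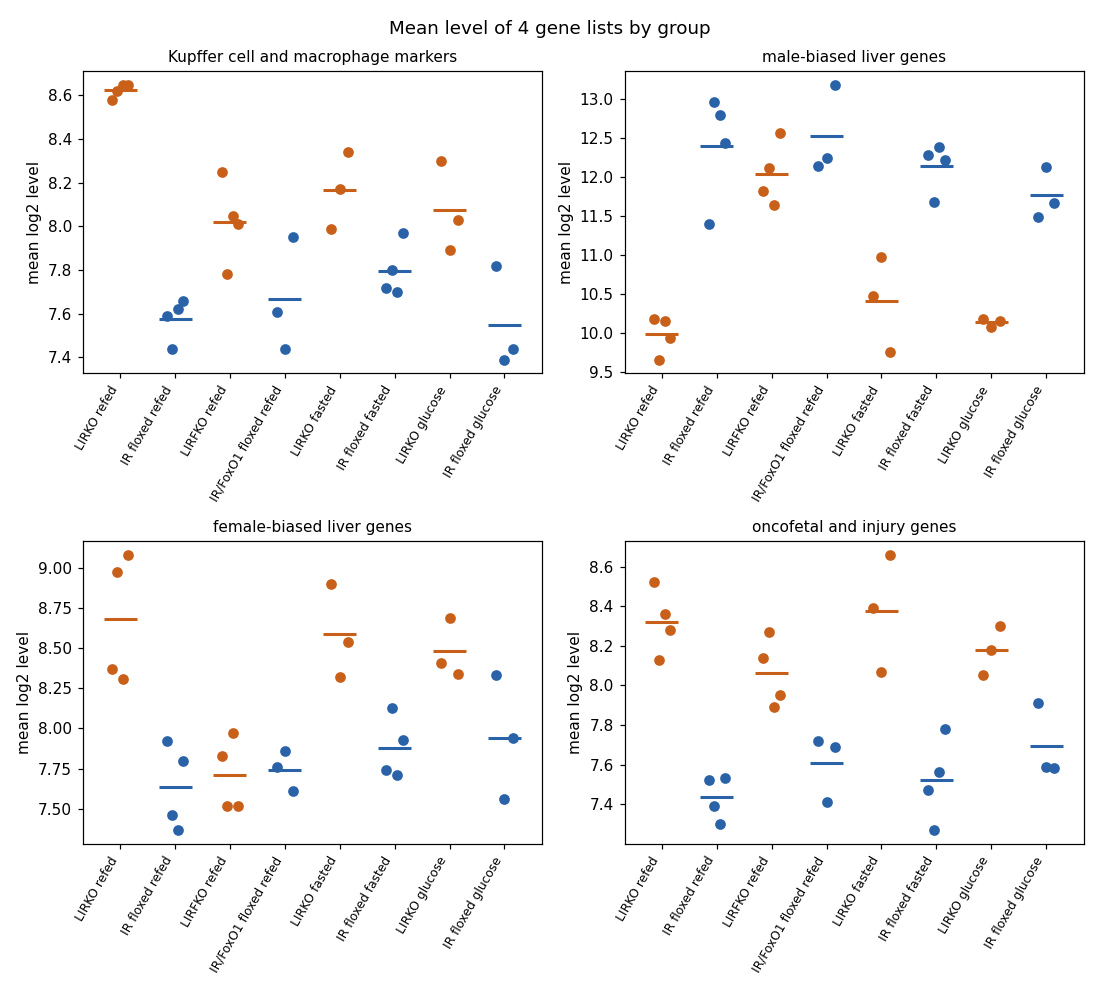
Mean log2 level over the measured members of 4 gene lists (panels) in each liver of 8 groups (points, with a bar at the group mean), each knockout group left of its floxed control. Refed LIRKO livers have the highest macrophage marker level (8.58 to 8.65), and the 3 LIRKO groups have the lowest male-biased levels.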

How the data were processed

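The authors deposited log2 single-channel intensities, 1 column per dye channel. Tools listed in the submitters' processing notes are R 3.1.0 with limma 3.20.1; how background was corrected and arrays were normalized is not given in the sources used here. Per the labels' protocols, 200 ng of total RNA was labelled with a two-colour low input Agilent kit. Of 45220 features 33026 had 1 gene name; 22485 genes were kept, each by its probe of highest mean. Limma 3.58.1 with statmod 1.5.0 (R 4.3.3) fitted 37 samples in 11 groups taking the array as random (correlation 0.358) and the dye as fixed; 1 sample with conflicting labels was left out. A floxed library, IRF.fl_Fast_523, had low Insr and Foxo1 and counts only towards the shared spread here; without it 2591 genes changed. P-values were adjusted by Benjamini-Hochberg. Each library is a separate numbered mouse per the labels, and the number of arrays limits the precision. Alternatives changed the samples fitted, dye, array and slide terms, scaling, probe choice, filter, moderation and threshold, and left out each library. The fit was checked on simulated data.

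Named were the 12 largest rises and 12 largest falls (adjusted p under 0.05, no overlap, above-median mean, no gene models), 18 key genes, from each of 45 lists the members with the smallest p, at most 4, and up to 5 genes per side of each difference. Ghr, Gsk3b, Me1, Elovl5, Elovl6, Socs2, Cish, Adipoq, Plin1, Mki67, Cdk1, Ccna2, Top2a, Ccnd1, Ccnd2, Cdkn2c, Aurka, Mcm7 and Rpl10 were added after their values were seen. The members, lists and tests were chosen with earlier results of these data known.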

Additional observations from a re-analysis of the deposited data

Results flagged for a closer look

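The 175 genes reported here and the refed groups gave 350 combinations of a gene and a group. In 25 of them, 1 of the 4 livers stood apart from the other 3 by Dixon's criterion, the gap to the nearest of them divided by the group's range. Chance alone flags about 1 in 20 groups. IR.KO_Refed_553 was the lowest of its group for Pck1 (ratio 0.852, log2 level 14.43). IR.KO_Refed_558 was the highest of its group for Adgre1 (ratio 0.845, log2 level 8.48). IR.KO_Refed_558 was the lowest of its group for Atf5 (ratio 0.897, log2 level 14.98), Cyp7b1 (ratio 0.868, log2 level 9.69) and Tff3 (ratio 0.862, log2 level 9.98). IR.KO_Refed_564 was the highest of its group for Serpinb1a (ratio 0.93, log2 level 10.72). IR.KO_Refed_564 was the lowest of its group for Lect2 (ratio 0.864, log2 level 10.87), Mcm3 (ratio 0.889, log2 level 8.18), Mcm5 (ratio 0.849, log2 level 6.84) and Vsig4 (ratio 0.934, log2 level 10.49). IR.KO_Refed_565 was the highest of its group for Rgs16 (ratio 0.879, log2 level 12.75). IR.fl_Refed_506 was the highest of its group for Adipoq (ratio 0.892, log2 level 5.43). IR.fl_Refed_506 was the lowest of its group for Trpm4 (ratio 0.929, log2 level 5.62). IR.fl_Refed_508 was the lowest of its group for Ccr3 (ratio 0.838, log2 level 5.89). IR.fl_Refed_562 was the highest of its group for Cyp2b13 (ratio 0.88, log2 level 5.803) and H19 (ratio 0.939, log2 level 7.603). IR.fl_Refed_566 was the highest of its group for Afp (ratio 0.932, log2 level 6.98), Aldoa (ratio 0.851, log2 level 14.11) and Gsk3b (ratio 0.92, log2 level 9.55). IR.fl_Refed_566 was the lowest of its group for Cyp2f2 (ratio 0.932, log2 level 14.94), Ghr (ratio 0.842, log2 level 10.24), Igf1 (ratio 0.865, log2 level 12.97), Inhbe (ratio 0.932, log2 level 8.68), Nudt7 (ratio 0.942, log2 level 12.57) and Saa4 (ratio 0.885, log2 level 10.52).

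The LIRKO effect refed minus that in fasted mice, on the log2 scale, was above 0 and passed limma's interaction test for Ccnd3 (1.02), Ccr3 (1.24), Fbxo21 (1.82), Flvcr2 (1.45), Glod5 (1.25), Npc1 (1.19) and Sat2 (1.23). The LIRKO effect refed minus that in fasted mice, on the log2 scale, was below 0 and passed limma's interaction test for Cyp2c70 (-2.98), Herpud1 (-2.29), Hilpda (-1.09), Nat8f5 (-2.19), Pdk4 (-2.35) and Tnfrsf12a (-1.704). The refed LIRKO effect minus the refed LIRFKO effect, on the log2 scale, was above 0 and passed limma's interaction test for Abcb4 (1.18), Abcc4 (1.198), Afp (2.42), Ccnd3 (1.23), Ccr3 (1.57), Cd63 (2.27), Cyp2b13 (2.82), Cyp2c39 (2.59), Dcp1b (1.46), Foxo1 (2.67), Glod5 (1.95) and Ifi27l2b (2.93). It was above 0 in the same test for Igdcc4 (2.84), Igf2bp3 (1.86), Igfbp1 (4.22), Igfbp2 (2.27), Il1rn (0.75), Irs2 (1.58), Kbtbd11 (1.35), Krt23 (3.52), Mcm3 (1.18), Mgst2 (2.995), Npc1 (1.73) and Pdp1 (0.65). It was above 0 in the same test for Serpinb1a (4.99), Slc51b (2.49), Trib3 (1.997) and Trpm4 (1.15). The refed LIRKO effect minus the refed LIRFKO effect, on the log2 scale, was below 0 and passed limma's interaction test for Aldh1a7 (-2.21), Ces1f (-3.71), Cyp2j5 (-1.17), Cyp4a12a (-3.19), Cyp4a12b (-3.06), Cyp7b1 (-2.52), Ebp (-1.01), Herpud1 (-2.07), Igf1 (-2.57), Mt2 (-2.84), Myom2 (-2.94) and Nat8 (-3.53). It was below 0 in the same test for Nat8f5 (-3.36), Nudt7 (-1.92), Pik3r1 (-1.13), Saa4 (-2.58), Slc10a2 (-3.83) and Slco2b1 (-1.704). The LIRKO effect refed minus that after glucose, on the log2 scale, was above 0 and passed limma's interaction test for B4galnt1 (5.55), Cidec (3.21), Dcp1b (0.72), Flvcr2 (1.18), Glod5 (1.54), Kbtbd11 (1.45), Lrat (0.83), Pes1 (1.34) and Slc51b (1.51). The LIRKO effect refed minus that after glucose, on the log2 scale, was below 0 and passed limma's interaction test for Adamts14 (-1.58), Gsk3b (-0.67), Inhba (-1.61), Nat8f5 (-2.21) and Slc10a2 (-1.51).

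Features of the array to which the annotation used here gives no gene name stand outside the comparisons above. Of 12194 such features 707 changed between refed LIRKO and refed IR floxed livers in the same kind of test (5.8%), 483 higher and 224 lower.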

How the results depend on the processing

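The count of 2610 changed genes was 1539 with only the 8 refed libraries, 1554 with columns scaled to 1 median and median absolute deviation (979 higher, 575 lower), 1486 at an adjusted p under 0.01 and 535 with a change of at least 1 log2. Leaving out single libraries gave 1726 to 2966. The count of 37 genes that differ between the refed and fasted effects was 6 with only the groups compared, 9 with no dye term, 5 with no array block, 3 with slide as a block and 14 with scaled columns, and 3 to 66 with single libraries left out. Against the LIRFKO effect, the counts of 194 genes with a higher and 103 with a lower effect in LIRKO were 345 and 197 with only the groups compared, 62 and 32 with slide as a block and 118 and 44 with scaled columns; with single libraries left out they were 98 to 385 and 53 to 265. The count of 134 against the glucose effect was 0, 40, 1, 0 and 27 with only the groups compared, no dye term, no array block, slide as a block and scaled columns, and 1 to 449 with single libraries left out; limma left 2107 and 1870 genes at an unadjusted p under 0.05 in the 2 settings with 0. The cause of these moves was not tested. Of the 160 named genes called, 100 kept the call in every setting and leave-out tried. With only the 8 refed libraries in the fit, 52 of the 160 lost it. Within slide 185 the sign turned for Cyp7a1 (0.26), Aldoa (-0.44), Ldha (-0.19), Srxn1 (-0.25) and Cd3e (0.08), and within slide 186 for Psph (-0.03), Syvn1 (0.21), Epor (-0.18), Pcx (0.08), Lum (-0.31) and Sparc (-0.01). Leaving IR.fl_Refed_566 or IR.KO_Refed_564 out of the list counts was chosen after seeing the data. Replicate numbers are not shared between the groups and pair no samples; with slide, which holds both groups on 3 slides, as a block, 2110 genes changed.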

Other observations

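Cytosolic ribosomal protein genes, a family chosen after its values were seen, were higher in LIRKO livers: of 74 measured 51 rose and 0 fell, with a median of 0.54. Over all genes 6.95% rose. The same family had 44 rises in fasted LIRKO livers, 36 after glucose and 0 in refed LIRFKO livers, with medians of 0.48, 0.45 and 0.11. Over all genes 4.14%, 4.38% and 0.142% rose in these comparisons. With so few LIRFKO rises among all genes, the count of 0 says little about this family. Of 78 mitochondrial ribosomal protein genes 4 rose and 1 fell in refed LIRKO livers, and of 40 proteasome genes 1 rose. Rpl10, a large-subunit gene, was at the top of the range in all 4 LIRKO livers.

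Members of some other families chosen in the same way were lower. Of 18 carboxylesterase genes 10 fell and 0 rose (median -0.86), of 14 UDP-glucuronosyltransferase genes 7 fell, of 7 Nat8 acetyltransferase genes 4 fell and of 9 major urinary protein genes 4 fell. Of 7 genes of the terminal complement pathway 5 fell. Over all genes 4.66% fell and 6.95% rose. Other families in the same tabulation rose in part, with 3 of 5 Cyp2b genes, 3 of 3 C1q genes and 7 of 26 Serpinb genes higher, and of 8 Cyp4a genes 3 rose and 3 fell. Close paralogues in these families may share probe signal.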
